A study of Mus musculus with 30 samples.

Results

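The RNA of gradient pool 2 was compared between embryoid bodies (EB) and embryonic stem cells (ESC) on 6 of the 30 arrays of the series, 3 of each state, chosen by their titles. The EB were day-5 aggregates grown without leukaemia inhibitory factor (LIF), made from the mouse ESC line R-1. The ESC were undifferentiated R-1 cells kept with LIF. Both states received cycloheximide at 150 ug/ml for 15 min before harvest, which halts ribosomes on their mRNAs, so no group went without the drug. Cytoplasmic lysate was spun through a sucrose gradient, 12 fractions were joined into 4 pools, and 2.5 ug of RNA was labelled for an Affymetrix mouse expression array. Which end of the gradient gave pool 1 is not given in the labels, and pools are called by number only. All cultures come from 1 cell line, and each state was grown in 3 cultures described as biological replicates.

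In a sucrose gradient an mRNA sinks further the more ribosomes it carries, so the RNA of a pool holds mRNAs of a given load. LIF acts on mouse ESC through its receptor, the kinase Jak1 and the transcription factor Stat3. Stat3 activates, among others, the feedback inhibitor Socs3 and the naive pluripotency factor Klf4. Withdrawal of LIF and aggregation start differentiation, and cells pass through an epiblast-like state marked by Otx2 and others before germ layers form. A level in a pool depends both on how much of an mRNA the cells hold and on where it sediments. In pooled cells of a culture, fewer cells with an mRNA and less of it per cell cannot be told apart.

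The leading gene among those lower in EB was Socs3, and the leading metal-responsive gene among those higher was Mt1, so the 250 bases before the start of each are shown from RefSeq (GRCm38.p6), 5′ to 3′ on the gene's strand. The start is that of the promoter table, and both windows lie wholly or mostly inside the gene's span in the RefSeq gene table. For Socs3 (chr11:117969367-117969616, minus strand) capitals mark a match to the STAT motif TTCNNNGAA. For Mt1 (chr8:94178839-94179088, plus strand) capitals mark a match to the metal response core TGCNCNC.
Socs3: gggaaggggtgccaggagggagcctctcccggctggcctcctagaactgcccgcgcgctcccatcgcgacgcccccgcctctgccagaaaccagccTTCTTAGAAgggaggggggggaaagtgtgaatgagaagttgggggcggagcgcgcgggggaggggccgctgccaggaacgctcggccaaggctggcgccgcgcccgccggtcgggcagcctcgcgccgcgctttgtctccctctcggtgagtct
Mt1: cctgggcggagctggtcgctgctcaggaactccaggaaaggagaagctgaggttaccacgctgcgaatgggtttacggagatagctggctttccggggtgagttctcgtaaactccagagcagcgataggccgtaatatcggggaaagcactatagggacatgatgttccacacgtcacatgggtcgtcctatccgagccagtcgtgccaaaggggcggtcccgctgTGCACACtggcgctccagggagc
Searched on both strands, the STAT motif was in 7.18% of the 27025 promoter windows of the table and the metal core in 43.8%. Among the windows of all genes tested, the shares were 5.94% and 52.3%, against which the counts below are to be read. Of the 16 tested members of a LIF-STAT3 list, 15 had a window, and 2 of these (Socs3 and Icam1) held the STAT motif. Among genes that passed, a window was found for 8 of the 10 with the largest positive differences, of which 0 held the STAT motif and 5 the metal core. All 10 with the largest negative ones had a window, of which 1 held the STAT motif and 7, Socs3 among them, the metal core. Such matches describe the letters of these windows only.

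The 6 arrays differed in measures other than the genes. The mean linear signal was 425.0, 241.8 and 486.4 on the EB arrays, against 300.8, 185.9 and 322.7 on the ESC arrays of replicates 1, 2 and 3 (exact two-sided permutation test, p = 0.3, with 0.1 the smallest p that 3 against 3 allows). Between 18.3% and 26.5% of probe sets lay at the array's floor in EB and between 29.9% and 36.0% in ESC (exact p = 0.1). The log2 ratio of the 3′ to the 5′ probe sets, which grows as transcripts are shortened or incompletely copied, was 1.13, 1.64 and 2.22 for Actb in EB against 3.07, 3.91 and 5.31 in ESC (exact p = 0.1). For Gapdh it was 0.10, 0.10 and 0.68 in EB against 1.81, 1.83 and 2.8 in ESC (exact p = 0.1). The states did not overlap in either ratio, and their part in the results below was not tested. EB replicate 3 stood apart: its correlation with the other EB arrays over all probe sets was 0.906 and 0.916, where EB replicates 1 and 2 correlated at 0.974 and any 2 ESC arrays at 0.968 or more. The same array had the highest hybridisation controls (log2 value 13.91, against 11.17 to 12.65 on the other arrays) and the highest 18S rRNA probe sets (12.53, against 7.27 to 9.99).

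**Figure D1:**
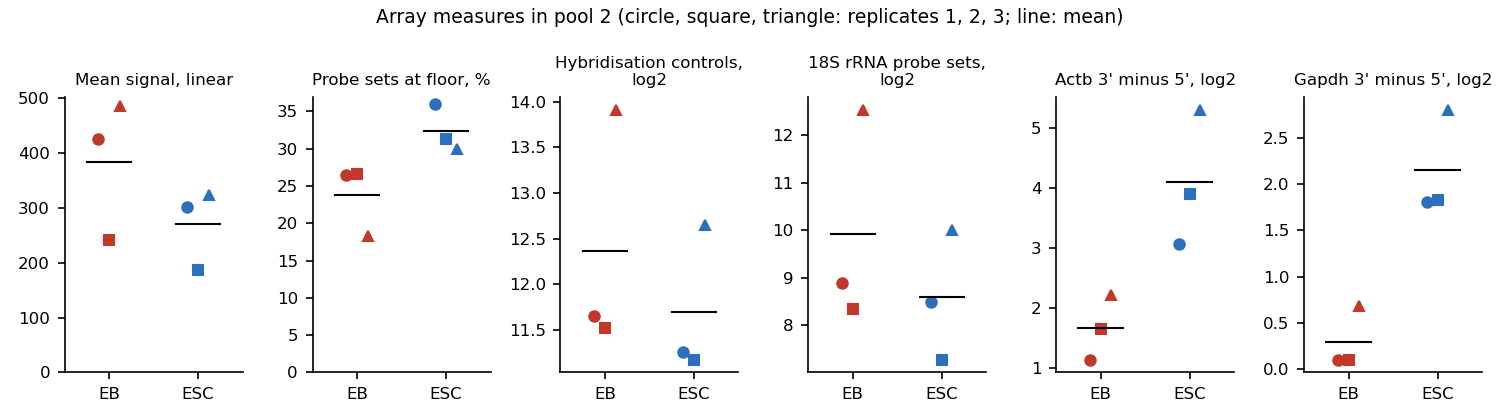
Measures of the 6 pool 2 arrays: mean linear signal, percentage of probe sets at the floor, hybridisation controls and 18S rRNA probe sets (log2), and the 3′ minus 5′ log2 ratios of Actb and Gapdh, with EB left of ESC, points for replicates 1 to 3 and a line for the mean. The 3′ minus 5′ ratios lie lower on all 3 EB arrays (Gapdh 0.10 to 0.68) than on all 3 ESC arrays (1.81 to 2.8), and EB replicate 3 has the highest controls.

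On the deposited scale most differences pointed one way. Of 13459 genes tested, 1882 passed the threshold (limma with the replicate number as a block, Benjamini-Hochberg adjusted p under 0.05), which is 14% of them. Higher in EB were 1730 (12.9%) and lower were 152 (1.13%), and the median difference of all genes was 0.39 on the log2 scale. Without the block 272 genes passed, 238 higher and 34 lower. With the arrays centred on their medians 131 passed as higher and 159 as lower, so the split of directions depended on the scaling. The Bacillus spike-in controls of the deposited arrays had a mean log2 of 9.43 on ESC replicate 3 and 9.70 to 9.78 on the other arrays. Leaving out replicate 1, 2 or 3 left 134, 1259 or 2926 genes. The largest differences on this scale were those of Spic (2.57), Ccn2 (2.55), Mt1 (2.43), Tcl1b3 (2.41), Dppa3 (2.37) and Copz2 (2.35) on the high side. On the low side were Socs3 (-4.35), Ahnak (-2.54), Klf4 (-2.49), Gbx2 (-2.49), Grb10 (-2.31) and Inhbb (-2.14).

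The results below are therefore given relative to all genes: the 6 arrays were quantile normalized, and a level is log2(linear signal + 32) after that step. Differences are EB minus ESC on this scale, and they understate changes of dim genes. Relative to all genes 599 genes passed, 4.45% of those tested, with 258 higher in EB (1.92%) and 341 lower (2.53%). The median absolute difference was 1.15 among the higher and 1.17 among the lower, and all 599 had the same sign in the 3 same-numbered pairs. The 3 EB levels did not overlap the 3 ESC levels for 254 of the 258 and for 339 of the 341, while 30.9% of all genes tested showed no overlap. The same values called these genes, so their shared sign and lack of overlap follow largely from the call and are no separate support. All 258 also passed as higher on the deposited scale, and 152 of the 341 as lower. The median genomic span was 12.2 kb for the higher and 36.7 kb for the lower, against 22.0 kb for all genes tested. Their median levels were 8.55 and 8.5, against 7.07. The part of gene length or level in the calls was not tested. Without the block 812 passed (339 higher, 473 lower), of which 561 were among the 599. The count changed with the replicate left out, in fits on fewer arrays. It was 1 (Socs3) without replicate 1, 69 without replicate 2 and 1301 without replicate 3. With the EB array of replicate 3 alone left out, and no block, 1218 passed, 569 of them among the 599. With an offset of 8 in place of 32, or with no filter on low values, 0 genes passed by limma (3061 and 3754 had an unadjusted p under 0.05).

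**Figure D2:**
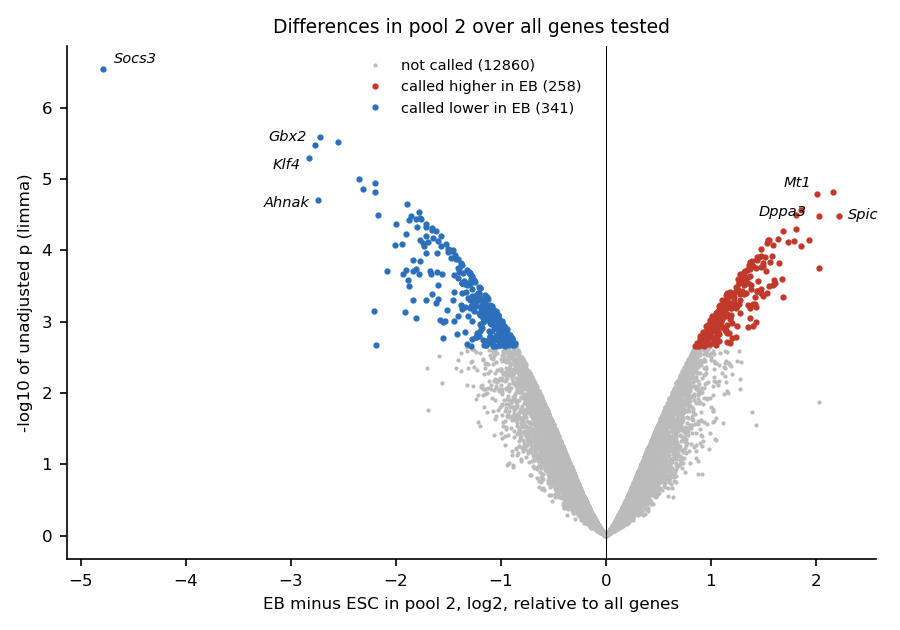
Difference EB minus ESC in pool 2 relative to all genes (log2, horizontal axis) against -log10 of the unadjusted limma p (vertical axis) for the 13459 genes tested; coloured points passed the adjusted threshold. Socs3 stands alone at -4.78, and the 258 genes higher in EB reach 2.22 (Spic).

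The LIF pathway genes had the lowest median of the 29 gene lists. Of 16 tested members, 7 were lower in EB and 0 higher, against 2.53% and 1.92% of all genes tested, and the list's median was -0.99 against 0.01 over all genes. The median was -0.57, -0.97 and -0.90 in the pairs of replicates 1, 2 and 3, and -0.62 on the deposited scale, where all genes had a median of 0.39. Socs3, which blocks the receptor's kinases, had levels of 6.96, 6.70 and 5.91 in EB, against 11.29, 11.44 and 11.20 in ESC. All 3 EB arrays lay more than 4 log2 units below all 3 ESC arrays, a difference of -4.78 ± 0.23 (SE; limma, adjusted p = 0.00384) or 27.5-fold. All 3 of its probe sets agreed in direction (-4.78 to -3.73), although the one used is of the class whose probes can match other transcripts. Klf4, a transcription factor of naive pluripotency, had 8.85, 8.84 and 8.30 in EB against 11.29, 11.69 and 11.49 in ESC, a difference of -2.83 ± 0.21 (adjusted p = 0.0135, limma). Gbx2, a homeobox factor downstream of Stat3 in mouse ESC, had 5.81, 6.24 and 5.58 in EB against 8.88, 8.77 and 8.29 in ESC, a difference of -2.77 ± 0.20 (adjusted p = 0.0114, limma). The states were separated in both genes by over 2 log2 units.

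The other pathway members that passed were the NF-kappaB cofactor Bcl3 (-2.01), the AP-1 subunit Junb (-1.38), Stat3 itself (-1.28) and the proto-oncogene Myc (-1.20). Junb was least even in EB, at 7.09, 6.86 and 7.92, against 8.50, 8.66 and 8.85 in ESC. Receptor and kinase mRNAs did not pass: the differences were -0.85 for the receptor Lifr (adjusted p = 0.111, limma), -0.45 for its partner Il6st and -0.44 for Jak1. Fos was the 1 member with a positive value (0.65), and it did not pass.

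Pluripotency genes were divided. In the core list 1 of 8 was lower and 0 higher, against 2.53% and 1.92% of all genes tested. Of the 8 values 7 lay below 0. The gene that passed was Nr5a2, an orphan nuclear receptor, with 9.22, 9.02 and 8.46 in EB against 10.36, 10.04 and 10.02 in ESC (-1.24 ± 0.20, adjusted p = 0.0315, limma). Of the 4 retained probe sets of Nr5a2, 1 gave 0.07. The central factors did not pass: Pou5f1 had 12.18, 12.14 and 11.82 in EB against 12.34, 12.43 and 12.05 in ESC (-0.23 ± 0.18, adjusted p = 0.458, limma). Sox2 had a difference of -0.59 ± 0.18, without overlap of the states, and an adjusted p of 0.105 (limma). Nanog had -0.22 ± 0.21 and its EB values of 10.91, 11.19 and 11.05 lay within the ESC range of 10.88 to 11.53. Sall4 (0.03), Tcf3 (-0.14), Tcl1 (-0.31) and Zfp281 (-0.50) did not pass either.

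The naive list of 24 tested genes had 4 higher and 7 lower in EB, against 1.92% and 2.53% of all genes. Beside Klf4, the lower ones were Klf5 (-2.19), Tbx3 (-1.87), Tfcp2l1 (-1.60), Rif1 (-1.50), L1td1 (-1.24) and Esrrb (-0.95). Klf5, a Krüppel-like factor that sustains self-renewal, had 8.64, 8.26 and 8.61 in EB against 10.68, 10.69 and 10.71 in ESC. One of its 3 probe sets gave 0.03, so the difference was not seen by all of them, and of 3 Esrrb probe sets 1 gave 0.20. The higher ones were Dppa3 (2.03), Utf1 (1.38), Lefty1 (1.18) and Prdm14 (0.88). Dppa3, a maternal and germ cell factor that protects DNA methylation, had 11.19, 11.06 and 11.27 in EB against 8.77, 9.18 and 9.47 in ESC (2.03 ± 0.21, adjusted p = 0.0208, limma). Utf1, a chromatin-bound factor of pluripotent cells, had 10.69, 10.22 and 10.83 in EB against 9.12, 8.99 and 9.50 in ESC. Every EB value of both genes exceeded every ESC value.

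Germline genes were higher in EB where they passed. Of 14 tested, 5 were higher in EB and 0 lower, against 1.92% and 2.53% of all genes tested, with a list median of 0.54 (1.01 on the deposited scale). Beside Dppa3 and Prdm14, which the naive list also holds, these were Mael (1.58), which acts in transposon silencing, Tex19.1 (1.55), which does so in germ cells and placenta, and Dazl (1.5), which binds mRNAs in germ cells. Tex19.1 was even within each state, at 10.33, 10.21 and 10.42 in EB against 8.79, 8.74 and 8.79 in ESC. Ddx4, a helicase of later germ cells, was at 0.01, and Rhox5 at -0.42 did not pass.

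Primed epiblast genes had 2 of 11 higher and 0 lower, where 1.92% of all genes tested were higher and 2.53% lower, as holds for the other lists of this paragraph too. Otx2, a homeobox factor of the epiblast, had 11.12, 10.76 and 10.65 in EB against 9.64, 9.34 and 9.12 in ESC (1.47 ± 0.18, adjusted p = 0.0224, limma). Lef1, a Wnt-responsive factor, had 8.21, 8.43 and 8.16 in EB against 7.10, 6.90 and 6.15 in ESC (1.55 ± 0.23, adjusted p = 0.0279, limma). Fgf5, often used to mark this state, was at 0.15 ± 0.22, and Dnmt3b at -0.03. Of 18 listed streak and mesoderm genes 6 were dropped as dim. Of the 11 tested 1 was higher, the BMP target Msx2 (1.08, at the floor in ESC replicate 1). The primitive endoderm list had 0 of 17 and the neural list 0 of 9 in either direction. Of the BMP and Id list, Id3, a helix-loop-helix inhibitor of differentiation, was higher at 10.70, 10.60 and 10.78 in EB against 8.69, 8.89 and 8.93 in ESC. The ligand Bmp4 was lower at 8.17, 7.87 and 7.49 in EB against 9.67, 10.11 and 9.47 in ESC (-1.90 ± 0.21, adjusted p = 0.0212, limma). Id1 and Id2, which share the family of Id3, were at -0.01 and -0.09.

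Marker lists bore on the labels. Of the 9 tested ESC markers 2 were lower and 1 higher, against 2.53% and 1.92% of all genes tested. These 9 summed, in linear signal relative to all genes, to 44170, 41800 and 39330 in EB against 54160, 55000 and 49190 in ESC (exact p = 0.1). Both states thus held bright ESC markers. Sums took every marker with a probe set, tested or not. The 10 primitive and visceral endoderm markers summed to 321.6, 331.2 and 411.8 in EB against 226.0, 239.2 and 297.1 in ESC (exact p = 0.1). Of these 10 markers 5 were tested, and 0 passed, against 4.45% of all genes tested. The sums of the feeder fibroblast (exact p = 0.7), mesoderm (0.6) and neural markers (0.9) overlapped between the states, and those of the blood markers did not (72.1 to 109.4 in EB, 109.7 to 134.6 in ESC, 0.1). No marker with a probe set was at the floor on all 6 arrays, but several were above it on few. Lum, a fibroblast marker, was above it on 0 EB arrays and 1 ESC array. The neural marker Neurog2 was so on 0 and 2, and the blood marker Hbb-bh1 on 2 and 1. The sums of these lists thus hold values at the floor. The part of other cell types in the differences was not tested.

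The largest positive difference among all genes tested belonged to Spic, an ETS-family transcription factor. It had 7.95, 8.05 and 8.17 in EB against 6.24, 5.63 and 5.64 in ESC, close to the floor (2.22 ± 0.23, adjusted p = 0.0208, limma). Ccn2, a matrix-associated growth factor and target of YAP, had 9.91, 9.57 and 9.49 in EB against 7.48, 7.44 and 7.57 in ESC (2.16 ± 0.19, adjusted p = 0.0201, limma). Its relative Ccn1 was also higher (1.44). Mt1, a metal-binding metallothionein whose upstream letters are shown above, had 13.54, 13.54 and 13.98 in EB against 11.64, 11.59 and 11.80 in ESC. The states were 2.01 ± 0.18 apart (adjusted p = 0.0201, limma), while the other of its 2 probe sets gave -0.11. Sqstm1, a receptor of selective autophagy, had 10.44, 10.65 and 10.86 in EB against 8.68, 9.09 and 8.76 in ESC. Copz2 (2.03), a coat protein of Golgi vesicles at the floor in ESC replicate 3, Enpp3 (1.94), an ectonucleotidase, and Dcxr (1.86), a carbonyl reductase, complete, with Dppa3, Id3 and Pdzk1, the 10 largest positive differences among genes that passed. Pdzk1, a scaffold protein, had 7.38, 7.21 and 7.07 in EB and lay at the floor on all 3 ESC arrays, so its measured difference of 1.81 is given without a fold.

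**Figure D3:**
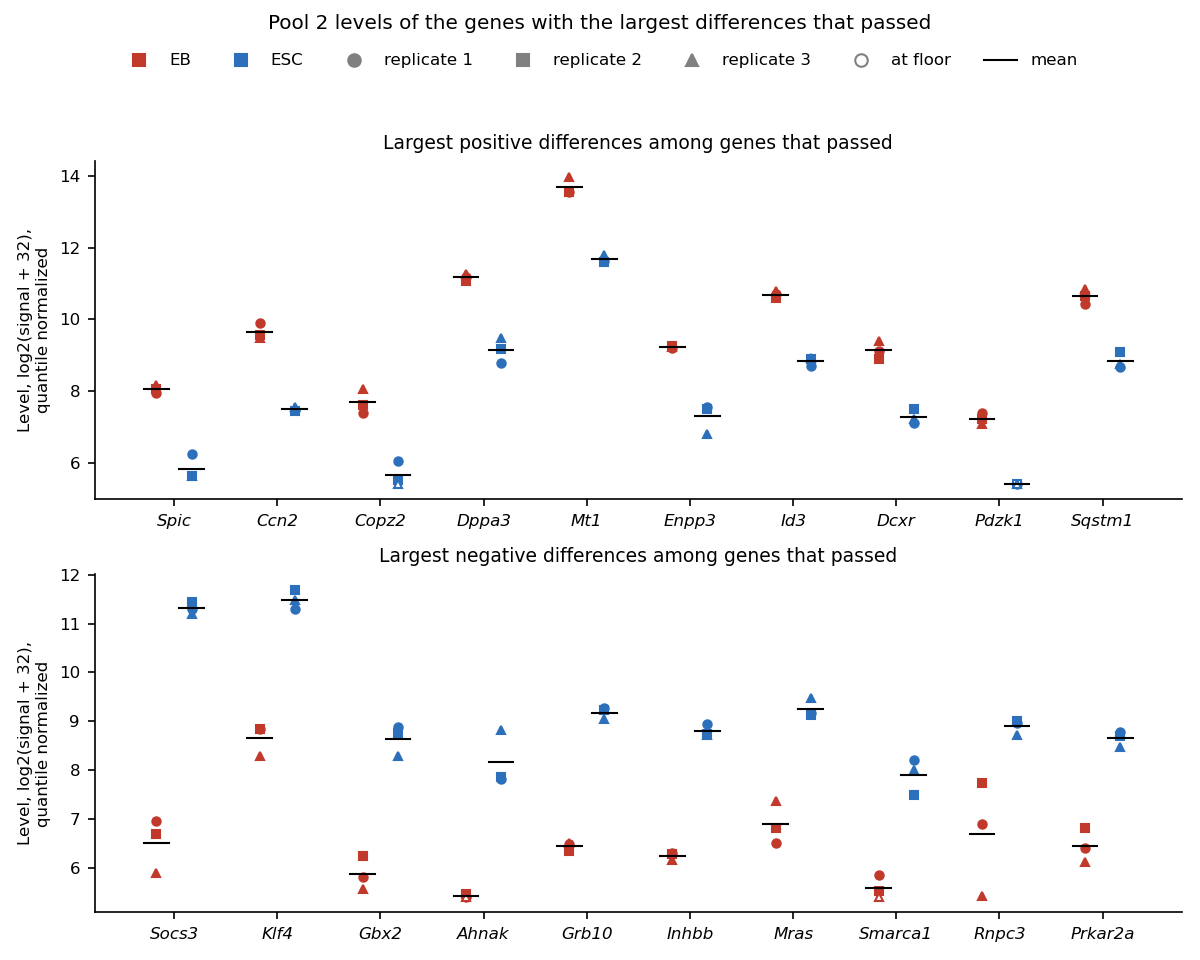
Level in pool 2, log2(signal + 32) after quantile normalization, of the 10 genes with the largest positive and the 10 with the largest negative difference among genes that passed relative to all genes; EB (red) stands left of ESC (blue), symbols mark replicates 1 to 3, open symbols lie at the floor and lines are means. The states do not overlap in any of these 20 genes, which were chosen by these same values, and Rnpc3 has the widest EB spread, 5.43 to 7.74.

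The other genes with the largest negative differences were spread over several roles. Grb10, an adaptor that damps insulin and growth factor receptors, had 6.50, 6.35 and 6.51 in EB against 9.27, 9.23 and 9.04 in ESC (-2.73 ± 0.18, adjusted p = 0.0114, limma). One of its 3 probe sets gave 0.05. Inhbb, a subunit of activin B and inhibin B, had 6.31, 6.28 and 6.17 in EB against 8.95, 8.74 and 8.73 in ESC (-2.55 ± 0.18, adjusted p = 0.0114, limma). Mras, a Ras-family GTPase, had 6.52, 6.82 and 7.38 in EB against 9.17, 9.13 and 9.47 in ESC. Prkar2a, a regulatory subunit of protein kinase A, was at -2.20 ± 0.20, and 1 of its 3 probe sets gave 0.37. Ahnak, a very large scaffold protein, lay at the floor in EB replicates 1 and 3, and had 7.82, 7.87 and 8.82 in ESC. Its second probe set gave -0.02. Smarca1, a chromatin remodelling ATPase, was at the floor in EB replicate 3 (-2.31 ± 0.20). Rnpc3, a protein of the minor spliceosome, rested partly on EB replicate 3, at 6.90, 7.74 and 5.43 in EB against 8.96, 9.0 and 8.73 in ESC.

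**Figure D4:**
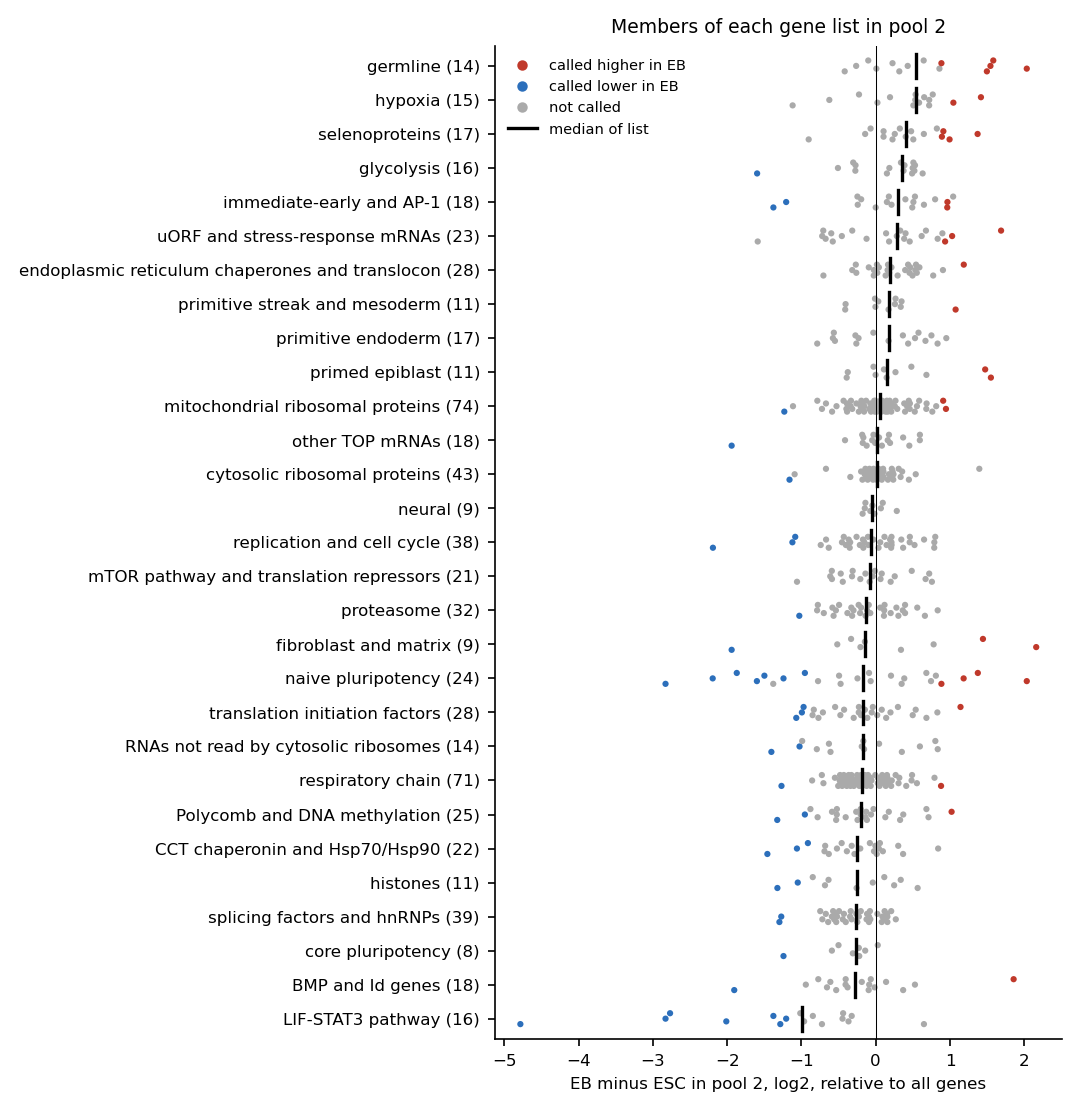
Difference EB minus ESC in pool 2 relative to all genes (log2) for every tested member of each of 29 gene lists, with the number tested in brackets, red for higher and blue for lower in EB past the threshold, grey otherwise, and a line at the list's median. The LIF-STAT3 list has the lowest median (-0.99), and the germline and hypoxia lists the highest (both 0.54).

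Members of the upstream reading frame and stress-response list were higher where they passed, while 3 heat shock and chaperone genes of another list were lower. Of 23 tested mRNAs with upstream reading frames or stress-response roles, 3 were higher and 0 lower, and the median was 0.28. The list was mixed: 14 values lay above 0 and 9 below, and the states did not overlap for 8 members higher in EB and 7 lower. Over all genes tested 1.92% were higher and 2.53% lower, and 6815 of 13459 lay above 0. The states did not overlap for 30.9% of all genes tested, in either direction. Gadd45g, a growth arrest factor, had 8.39, 7.57 and 8.48 in EB against 6.48, 6.58 and 6.30 in ESC (1.69 ± 0.26, adjusted p = 0.0311, limma). Ddit3 (1.03), a factor of the unfolded protein response, and Ppp1r15a (0.93), which directs the phosphatase of eIF2, were the others. Atf4 (0.38) and Atf5 (-1.59, adjusted p = 0.057, limma) did not pass. Selenoproteins, which need a recoded stop codon, had 4 of 17 higher and 0 lower, with a median of 0.40 and 14 of 17 above 0. Selenop, the secreted carrier, had 8.94, 9.20 and 9.03 in EB against 7.61, 7.78 and 7.66 in ESC. Gpx4, a lipid peroxidase, was at 0.99, Selenot at 0.91 and Selenos at 0.89. Hypoxia genes had 2 of 15 higher, Ndrg1 (1.42, with all 5 probe sets positive) and the mitophagy receptor Bnip3 (1.05), and a median of 0.54. Hif1a, a subunit of the hypoxia-inducible factor, was at -1.12 and did not pass (adjusted p = 0.0622, limma). Of 16 glycolysis genes 1 passed: Hk2, a hexokinase, was lower at 8.71, 8.83 and 8.85 in EB against 10.35, 10.24 and 10.59 in ESC.

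Of 18 immediate-early genes tested 2 were higher, Btg2 (0.97) and Dusp1 (0.96), and 2 lower, Junb and Myc, against 1.92% and 2.53% of all genes. The list's median was 0.31, with 13 of 18 values above 0. The states did not overlap for 7 members higher in EB and 2 lower, against 30.9% of all genes tested in either direction. On the deposited scale 8 passed as higher and 1 as lower, where 12.9% of all genes tested were higher and 1.13% lower. In the endoplasmic reticulum list 1 of 28 passed, the protein disulfide isomerase P4hb (1.19). Of 9 tested matrix and fibroblast genes 2 were higher, Ccn1 and Ccn2, and 1 lower, the intermediate filament gene Vim, at 7.98, 8.44 and 7.81 in EB against 9.88, 9.94 and 10.22 in ESC.

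The lists of the translation machinery held calls in both directions, where 1.92% of all genes tested were higher and 2.53% lower. Of 43 tested cytosolic ribosomal protein genes 0 were higher and 1 lower, Rps25 (-1.16 ± 0.19, adjusted p = 0.0323, limma), and the median was 0.02. On the deposited scale 9 of them were higher and 1 lower, with a median of 0.68. On that scale 12.9% of all genes tested were higher and 1.13% lower, and their median was 0.39. The shift of this list thus depended on the scale, as did that of all genes. The other mRNAs with a terminal oligopyrimidine tract had 0 higher and 1 lower of 18 (Vim), and the mTOR list 0 in either direction of 21. Of 74 mitochondrial ribosomal protein genes Mrpl17 (0.95) and Mrpl23 (0.91) were higher and Mrpl11 (-1.23) lower. Initiation factors had 1 of 28 higher and 3 lower: Eif3m (1.14, while its other probe set gave -0.39), against Eif5b (-1.07), Eif1ax (-0.99) and Eif3a (-0.97). Eif5b joins ribosomal subunits, and 1 of its 3 probe sets gave 0.35.

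In the remaining lists the calls are to be read against 1.92% of all genes tested as higher and 2.53% as lower. Of 71 respiratory chain genes Atp5g2 (0.88) was higher and Ndufs1 (-1.27) lower. Splicing factors had 0 higher and 2 lower of 39, Hnrnpu (-1.30) and Hnrnpd (-1.27), with 29 of 39 below 0. Chaperones of the CCT and heat shock groups had 0 higher and 3 lower of 22, Hsph1 (-1.46), Hspd1 (-1.06) and Hspa4 (-0.91). Replication and cell cycle genes had 0 higher and 3 lower of 38, the origin protein Orc2 (-1.12), the ribonucleotide reductase subunit Rrm1 (-1.08, with its other probe set at 0.90) and the proliferation marker Mki67. As a whole that list was evenly split, with 18 values above 0, 20 below and a median of -0.06. The states did not overlap for 10 of its members higher in EB and 10 lower, against 30.9% of all genes tested in either direction. Mki67 had 7.38, 7.45 and 5.45 in EB against 8.82, 8.89 and 9.16 in ESC (-2.19 ± 0.45, adjusted p = 0.049, limma), so EB replicate 3 lay far below the other EB arrays. Of 25 Polycomb and DNA methylation genes Ezh1 (1.02) was higher, and Tet2 (-1.32) and Uhrf1 (-0.95) were lower. Histone genes had 2 of 11 lower, H1f2 (-1.32) and H2aw (-1.05), and the proteasome 1 of 32, Psmd13 (-1.03). A list named RNAs not read by cytosolic ribosomes had 14 noncoding RNAs tested, among them small nucleolar RNA hosts such as Snhg3. Whether ribosomes bind these hosts was not tested. Of the 14, Neat1 (-1.40) and Mirg (-1.02) were lower, and the 2 probe sets of Neat1 differed in sign (-1.40 and 0.20).

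Pool 2 was then set beside its neighbouring pools and the unfractionated RNA. The difference between states was itself tested for a difference, per culture, after quantile normalization over 12 arrays at a time. By limma 0 genes passed against pool 1, against pool 3 or against unfractionated RNA (0% each, with 1378, 1499 and 2338 genes at an unadjusted p under 0.05). These tests do not show that the RNAs behave alike. With an offset 4 times as large, 106, 137 and 1027 genes passed, and on the deposited scale 12, 5042 and 4222. For the leading genes the EB minus ESC values, each after quantile normalization of that RNA's 6 arrays, had the same sign in all 4 RNAs. Socs3 was at -3.49 in pool 1, -4.78 in pool 2, -3.63 in pool 3 and -4.0 in unfractionated RNA. Spic was at 1.08, 2.22, 1.21 and 1.43 in the same order, and Sqstm1 at 1.31, 1.81, 1.22 and 0.97. Prkar2a was at -0.83, -2.20, -1.09 and -0.80. None of these passed as different between pool 2 and another RNA (lowest adjusted p over all genes 0.432, 0.429 and 0.223 for pool 1, pool 3 and unfractionated RNA, limma).

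**Figure D5:**
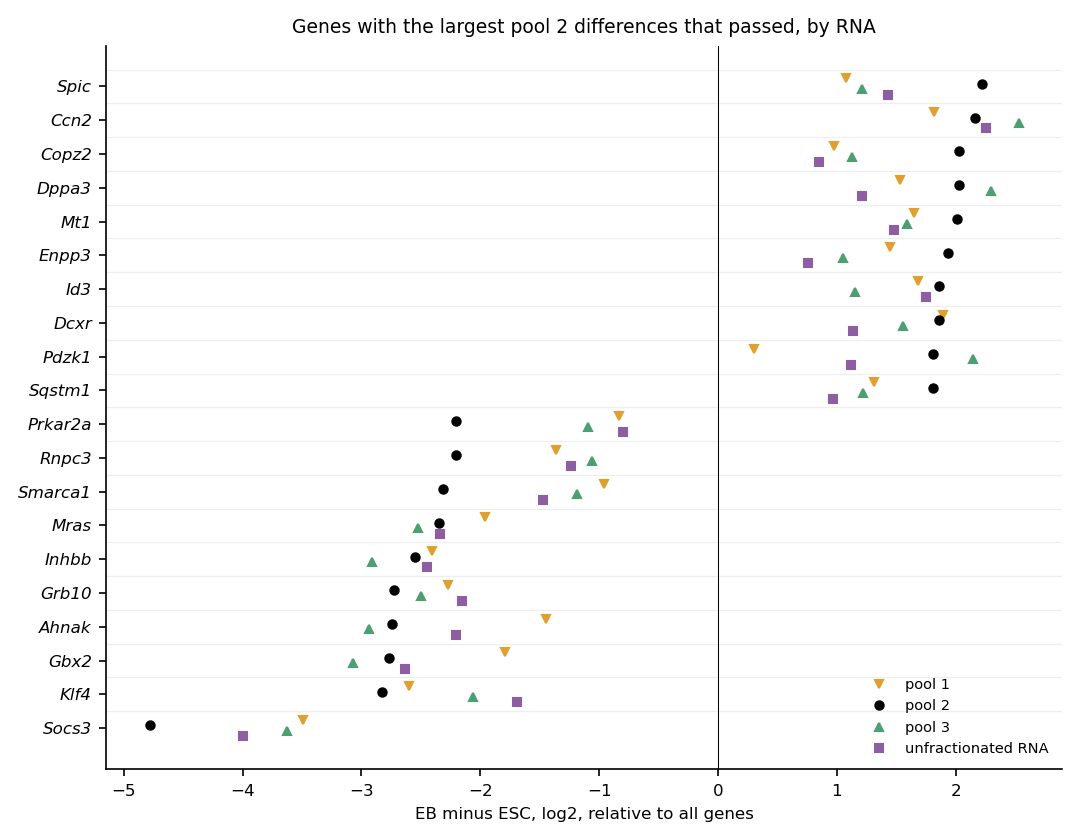
Difference EB minus ESC relative to all genes (log2) in pool 1, pool 2, pool 3 and unfractionated RNA for the 10 genes with the largest positive and the 10 with the largest negative pool 2 differences among those that passed. Each gene keeps its sign in all 4 RNAs, and the pool 2 values chose the genes, so their larger size in pool 2 is no result.

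The genes with the largest changes of difference are named as values that did not pass. Against unfractionated RNA the lowest was Jun, an AP-1 subunit, with a difference of 0.00 in pool 2 and 2.09 in unfractionated RNA. Its level in pool 2 minus that in unfractionated RNA was -1.82, -1.78 and -2.46 in EB against -0.29, 0.06 and 0.61 in ESC, so the states did not overlap (-2.15 ± 0.34, unadjusted p = 0.000662, adjusted p = 0.223, limma). The highest was Slco2b1, an organic anion transporter, at 1.47, 0.50 and 2.20 in EB against -0.88, -1.16 and -0.88 in ESC (2.36 ± 0.32, adjusted p = 0.223, limma). It also had the second largest positive value against pool 3 (1.92 ± 0.24), and in pool 2 it was at the floor in ESC replicates 1 and 2. Ppp1r1a (1.85), Rpl27a (1.80), Il17re (1.75) and Tubb4a (1.74) followed on the high side, and Bmpr2 (-1.73), Fam13b (-1.71), Cenpj (-1.70) and Zc3h7a (-1.69) on the low side. For Rpl27a the EB levels in pool 2 were 9.33, 9.69 and 12.61, so replicate 3 set its value.

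Against pool 1 the largest positive value belonged to Tcl1b3, a member of the Tcl1 family expressed in early embryos (2.42 ± 0.48, adjusted p = 0.432, limma), and so it did against pool 3 (2.76 ± 0.63, adjusted p = 0.429). Tcl1b3 had 9.96, 10.70 and 12.24 in EB pool 2 against 9.58, 9.0 and 8.23 in ESC pool 2, so both states were spread widely. Its pool 2 difference of 2.03 passed on the deposited scale alone (2.41, adjusted p = 0.0296, and 0.102 relative to all genes, limma). Unc50 (1.49), Cox16 (1.37), Spryd7 (1.30) and Nipsnap2 (1.29) followed against pool 1. The lowest were the small nucleolar RNA host Snhg3 (-1.69), Mrpl11 (-1.43), Rbp7 (-1.42), Rpl39 (-1.42) and Prrc2c (-1.40). Prrc2c was lower in EB in pool 2 (-1.89), and it was at -0.26 in pool 1, -1.52 in pool 3 and -0.30 in unfractionated RNA. Against pool 3 Irak1 (1.54), Trpc4 (1.40) and Asphd1 (1.38) were on the high side, and Rab6a (-1.61), Ier5 (-1.57), Mob1a (-1.52), Mtpn (-1.46) and Med18 (-1.41) on the low side. Med18 and Nipsnap2 rested on EB replicate 3, which had 6.56 against 8.60 and 8.64 in the other EB arrays for Med18, and 10.73 against 8.50 and 8.92 for Nipsnap2.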

How the data were processed

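Values of 45101 probe sets were deposited by the authors on a log2 scale, with MAS5 and affy named, without versions or roles, in the submitters' processing notes; the genome build is not given in the sources used here. As the values show, the pool 2 arrays lay at 9.70 to 9.78 in the Bacillus spike-ins (mean log2), apart from ESC replicate 3 at 9.43. Arrays of a replicate number shared a floor (log2 3.80, 2.93 and 3.35). Values were made linear, 32 was added and log2 was taken. The lowest 40% of 45037 probe sets (64 controls aside) were dropped, leaving 27022. Of all 45037, 34945 had 1 symbol, 932 several and 9160 none; a gene was its brightest probe set over the 6 arrays. Fits used limma 3.58.1 in R 4.3.3 (lmFit, eBayes, replicate block, Benjamini-Hochberg), and were tested on simulated data. Single values had exact permutation tests. Sequences came from RefSeq (GRCm38.p6), and protein sequences were not used here. The number of arrays limits the precision.

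Deviations of same-numbered arrays from their group means correlated at 0.37, 0.08 and 0.13 (0.13, 0.08 and 0.16 relative to all genes). Not every pair exceeded 0.1, so the numbers are not shown to pair the cultures. The block had been set as the main design, and results without it stand beside it. Genes, lists and tests were chosen with earlier results of these data known. Named are the 10 highest and 10 lowest relative to all genes, the 6 highest and 6 lowest on the deposited scale, up to 3 called members per list, the 5 highest and 5 lowest of each comparison between RNAs, and core pluripotency genes. Markers other than those of ESC are given as sums, with some named for lying at the floor. List members beyond these were named after their values were seen. The alternatives were other offsets, filters, probe set rules, scalings, variance models and left-out replicates.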

Additional observations from a re-analysis of the deposited data

Results flagged for a closer look

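Of 27022 retained probe sets, 4013 carry no single gene symbol and so enter no gene result. When all retained probe sets were tested relative to all genes, 30 of these passed (22 higher and 8 lower in EB), 0.748% against 1.33% of all probe sets. They are listed because the comparison by gene does not use them, and they passed less often than all probe sets. Their differences ranged from -2.41 to 2.42 on the log2 scale.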

How the results depend on the processing

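Of the 20 named genes with the largest differences relative to all genes, 0 passed with an offset of 8 or no filter, 1 without replicate 1 and 18 with the mean of a gene's probe sets. With probe sets above the floor only, 16 were tested and passed; under the other settings of the test by gene, relative to all genes, all 20 passed with their sign. The number of genes that passed relative to all genes (599) became 0 with an offset of 8 or no filter, 2306 with an offset 4 times as large, 1358 with the lowest 60% of probe sets dropped, 1474 with probe sets above the floor only, 373 with the mean of a gene's probe sets, 359 of all probe sets, 2185 with a variance trend, 1863 with array weights, 290 with median centring and 936 with quantile normalization over 30 arrays. It was 1 to 1301 with a replicate left out, 1218 with EB replicate 3 alone left out (an alternative chosen after seeing the data) and 812 with no replicate block. On the deposited scale (1882) the counts were 0 with an offset of 8 or no filter, 3598 with an offset 4 times as large, 3219 and 3187 with the stricter filters, 3729 with a trend, 3710 with weights, 134 to 2926 with a replicate left out, 164 without EB replicate 3 and without the block, 290 with median centring and 721 (152 higher, 569 lower) with scaling on the hybridisation controls. Without the replicate block 272 passed on that scale, and Nr5a2 there lost its call (adjusted p = 0.268, limma). Between RNAs, 0 genes passed without the block or with any replicate left out, while the deposited scale gave 12, 5042 and 4222 and an offset 4 times as large gave 106, 137 and 1027 for pool 1, pool 3 and unfractionated RNA. The cause of these changes was not tested, apart from the fewer arrays or genes that some settings leave.

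Genes near 0 changed sign. On the deposited scale with a replicate left out, Pou5f1 ranged from -0.08 to 0.14, Tcl1 from -0.20 to 0.15 and Nanog from -0.02 to 0.16. With median centring Nanog was at -0.28, Pou5f1 at -0.35, Sall4 at -0.04, Tcf3 at -0.13 and Tcl1 at -0.35, and with scaling on the hybridisation controls they were at -0.55, -0.63, -0.32, -0.35 and -0.59. Relative to all genes, Sall4 was at -0.10 with the mean of its probe sets, -0.09 with array weights, -0.15 to 0.15 with a replicate left out, -0.30 without EB replicate 3 and the block, and -0.04 with median centring, where Dppa5a was at 0.18. The LIF-STAT3 median ranged from -1.08 to -0.71 with a replicate left out.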

Other observations

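A gene is represented above by its brightest probe set, and the others did not always share its sign. Of the 258 genes that were higher in EB relative to all genes, 119 had several retained probe sets, and for 25 of these at least 1 had the opposite sign. Of the 341 that were lower, 224 had several, and 72 of these had at least 1 of the opposite sign.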
